A study of Mus musculus with 6 samples.

Results

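The genes described here are 10 markers of the axon injury and regeneration response of sensory neurons: Atf3, Jun, Sox11, Klf6, Gap43, Stmn2, Tubb3, Hspb1, Ecel1 and Sprr1a. They were listed by symbol and read from the rows of the gene count tables, and all 10 were found among the 35976 genes counted. When the axon of a peripheral sensory neuron is cut, its cell body in the dorsal root ganglion (DRG) turns on a growth programme in which transcription factors such as ATF3, c-Jun, SOX11 and KLF6 are induced, growth cone and cytoskeletal proteins are made for the new axon, and chaperones and stress proteins help the cell survive. Taking a ganglion apart to culture its neurons also severs their axons, so cultured DRG neurons are known to carry this programme without any further injury.

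DRGs from lumbar levels of adult C57BL/6 mice of both sexes, aged 2 to 3 months, were dissociated and the cells grown on poly-d-lysine and laminin in serum medium with nerve growth factor and GDNF. At 24 h after plating they received either vehicle (3 cultures) or HC-HA/PTX3 at 15 µg/mL (3 cultures) for 24 h. HC-HA/PTX3 is a complex of hyaluronan, covalently joined heavy chains of inter-α-inhibitor and pentraxin 3 that is purified from human amniotic membrane, and the study asked whether prolonged exposure alters transcription in these neurons. Bulk RNA was sequenced after ribosomal RNA depletion, with replicate numbers 1 to 3 in both groups. No genotype or transgene set the groups apart, and freshly isolated or intact ganglia were not analysed here, so how far culture itself raised the 10 genes was not tested.

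Total counts were 42516054, 42617496 and 54117547 in the vehicle cultures and 37998071, 37434266 and 38420247 in the treated cultures. Levels are given as CPM (each count scaled to a common library size) after scaling by trimmed mean of M-values, and 1 CPM stood for 37.1 to 56.0 counts. The least abundant of the 10, Ecel1, still had 1307 to 3256 counts per culture, so counting error was small beside the spread between cultures. The cultures were mixed. Markers of neurons summed to 7507 to 9775 CPM and those of satellite glia to 543 to 2237 CPM, with fibroblast markers at 1058 to 3865 CPM. In such bulk RNA, fewer cells of a type and less RNA per cell cannot be told apart.

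All 10 genes ranked high in vehicle cultures when compared per kilobase of exon. Tubb3, the neuronal β-tubulin, stood first with 651 ± 38.4 CPM per kb (SD, n = 3) and ranked 8 among 26708 genes with a known exon length. Gap43 followed at 194 ± 23.5 CPM per kb and was 3.35-fold below Tubb3, with no overlap between their vehicle cultures. Gap43, Hspb1 (187 ± 21.7), Jun (184 ± 22.5), Stmn2 (182 ± 21) and Sprr1a (162 ± 61.8 CPM per kb) each overlapped the next in this order, so these 5 could not be ranked among themselves. Atf3 at 63.1 ± 6.99 CPM per kb overlapped Klf6 at 55.1 ± 7.05 CPM per kb. Sox11 at 32.9 ± 2.94 CPM per kb and Ecel1 at 13.6 ± 3.79 CPM per kb each lay below the gene before it without overlap. Ecel1, the lowest, still fell within the top 13.6% of genes on this scale. The order rests on the merged exon length, which was 5602 bases for Stmn2. By vehicle CPM without length, ranks among 35976 genes were 60 for Stmn2, 156 for Jun, 539 for Gap43, 1069 for Hspb1 and 1804 for Sprr1a. Together the 10 genes took 0.391% to 0.455% of the counts in each culture, and Tubb3 with Stmn2 made up 53.1% to 57.7% of that.

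**Figure D1:**
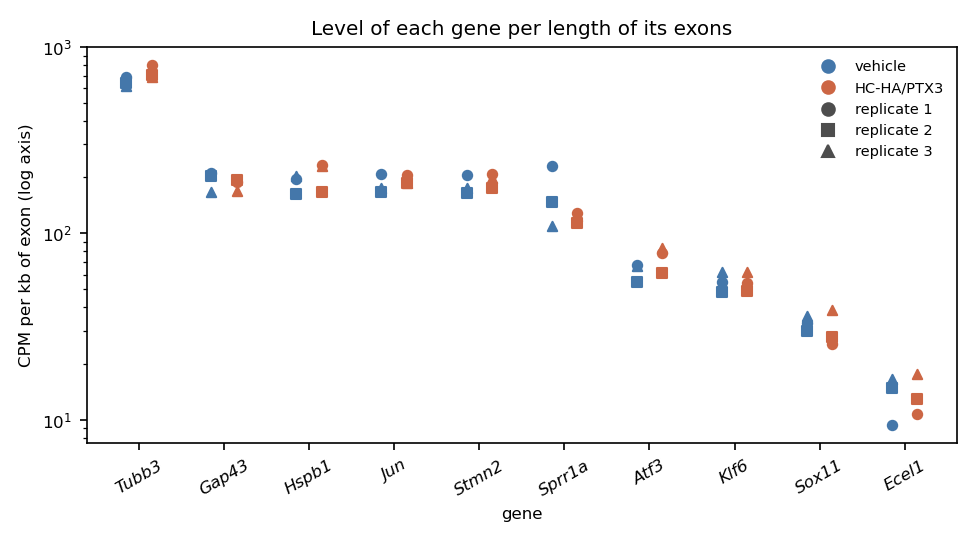
Level of each gene in CPM per kb of exon on a log axis, with 1 symbol per culture, blue for vehicle and orange for HC-HA/PTX3 (n = 3 each). Tubb3 stood apart at 651 CPM per kb in vehicle, 5 genes shared a band from 162 to 194, and Ecel1 was lowest at 13.6.

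The comparison of HC-HA/PTX3 with vehicle was made within same-numbered cultures with the quasi-likelihood test of edgeR, adjusted by the Benjamini-Hochberg method over 18277 genes, with a call requiring an adjusted p below 0.05 and a log2 fold change beyond 0.5. All 10 genes passed the filter on low counts. By that call 0 of the 10 genes changed, where 8.70% of all genes tested did, 3.32% higher and 5.38% lower. At an unadjusted p below 0.05 there were 4 (Atf3, Tubb3, Hspb1 and Sprr1a) beside 33.2% of all genes, and DESeq2, limma-voom and ComBat-seq followed by limma also called 0. Without the fold threshold 1 of 10 passed, Atf3, which was higher, beside 19.2% of all genes, 7.67% higher and 11.5% lower. That count, with the share of all genes at any fold in the same setting, was 1 with DESeq2 (15.0%), 2 with limma-voom (19.4%) and with raw library sizes (17.9%), 3 with all genes of at least 1 count (4244 of 30347) and 4 with ComBat-seq followed by limma (Atf3, Stmn2, Tubb3 and Hspb1; 40.7%). It was 0 without the replicate block (0%), without replicate 1 (8.20%) and without replicate 2 (11.8%). Treated and vehicle cultures overlapped in CPM for all 10 genes, while they did not overlap for 18.0% of genes tested. The median log2 fold change of the 10 genes was 0.054 against -0.0067 over all genes tested, and their median absolute log2 fold change was 0.11 against 0.19. In 9 of the 10 the 95% confidence interval of the log2 fold change lay inside 0.5 in both directions, Sprr1a being the exception. The sample labels do not say whether each culture came from separate animals, so p-values measure only the spread between these cultures.

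**Figure D2:**
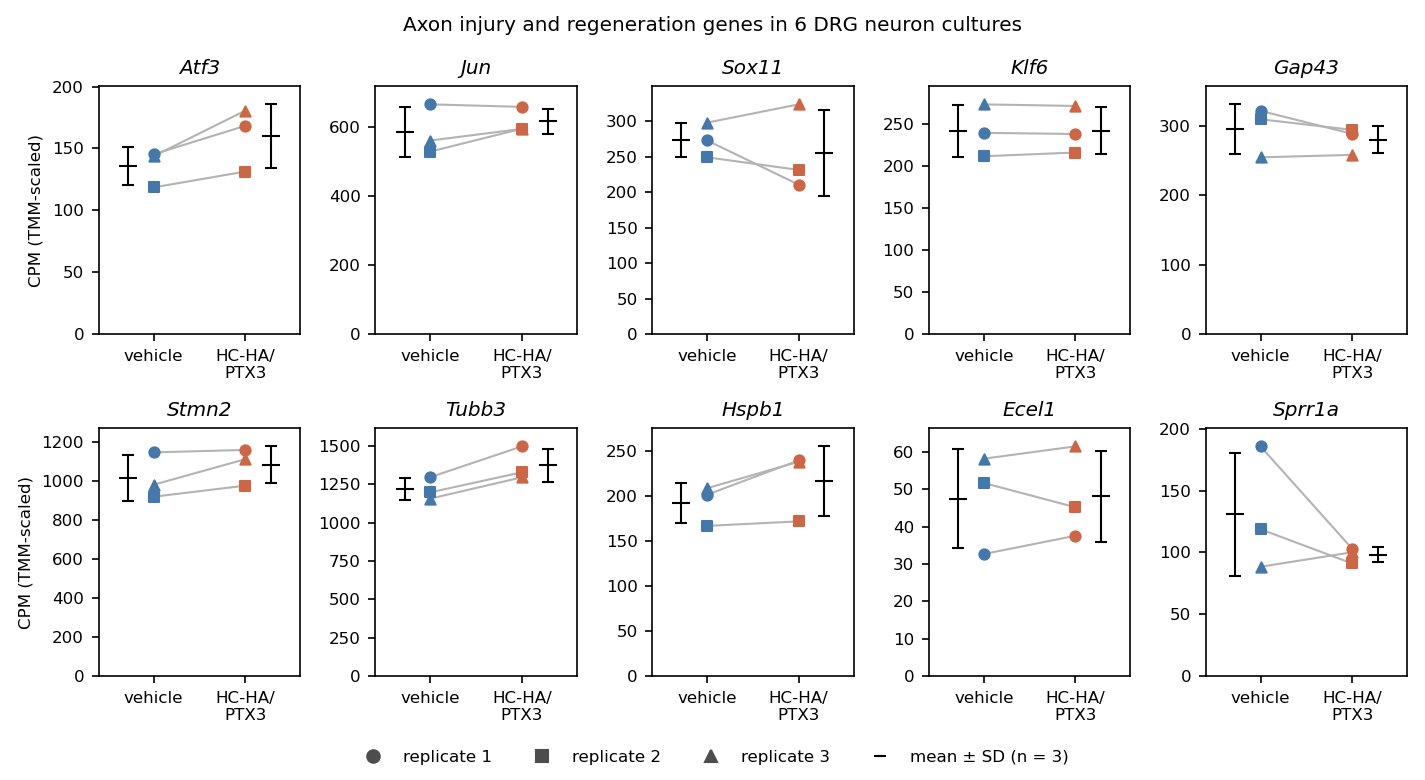
CPM of each gene in the 6 cultures, with lines joining cultures of the same replicate number and bars giving mean ± SD (n = 3 per group). Atf3, Stmn2, Tubb3 and Hspb1 were higher in the treated culture of all 3 pairs, and Sprr1a spread from 88.3 to 186 CPM in vehicle but only from 91.0 to 103 CPM after HC-HA/PTX3.

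Of the transcription factors, Atf3 showed the clearest difference. ATF3 is a stress-induced factor of the ATF/CREB family that is nearly silent in uninjured DRG neurons and is widely used as a marker of axotomised ones. Atf3 measured 145, 118 and 144 CPM in vehicle replicates 1, 2 and 3 and 168, 131 and 180.5 CPM in the treated ones. Replicate 2 was the lowest in both groups, and the treated culture was higher in every pair although the groups overlapped. Its level rose by 17.3% (95% confidence interval 6.39% to 29.2%), a log2 fold change of 0.23 ± 0.06 (SE) with an adjusted p of 0.0304 in edgeR's quasi-likelihood test, short of the fold threshold. The adjusted p was 0.607 without the replicate block. It lay between 0.0639 and 0.158 when both cultures of 1 replicate number were left out, so the test was passed only with all 3 pairs. The log2 fold change stayed about as large, at 0.236 without the block and 0.241, 0.266 and 0.195 without replicates 1, 2 and 3. Over all alternatives the adjusted p ran from 0.00399 to 0.607.

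Atf3 was also read against the summed counts of 12 neuronal markers, as a percentage of them. On that scale it stood at 1.49%, 1.58% and 1.65% in vehicle and at 1.72%, 1.68% and 1.85% after treatment, so each treated culture lay above each vehicle culture. It was the 1 gene of the 10 whose groups did not overlap on this scale, where 10.3% of all genes did not. With library sizes set by these markers, its log2 fold change was 0.15 with an adjusted p of 0.180. The neuronal markers themselves had a median log2 fold change of 0.069, with Uchl1 higher and Elavl4 lower past the adjusted p.

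Jun, Sox11 and Klf6 did not pass the test at any fold. Jun encodes c-Jun, the AP-1 subunit that is phosphorylated by JNK after axon injury, and ranged from 529.6 to 667 CPM in vehicle and from 596 to 659 CPM in treated cultures. Its log2 fold change was 0.080 with a confidence interval from -0.06 to 0.22. Jun shares 232 bases of exon with Junos, a non-coding gene on the opposite strand that was counted separately. Junos had a log2 fold change of 0.41 (adjusted p 0.0436 in edgeR's quasi-likelihood test, higher in 3 of 3 pairs), and because the strand setting of the counting is not given in the sources used here, reads of Jun and Junos in those bases cannot be told apart.

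Sox11, a SoxC factor of developing neurons that is re-expressed after nerve injury, measured 273, 249 and 298 CPM in vehicle and 211, 231 and 324 CPM after HC-HA/PTX3. It was lower in treated replicates 1 and 2 and higher in replicate 3, so the pairs disagreed in direction. The log2 fold change was -0.12 with a confidence interval from -0.31 to 0.07. Klf6, a Krüppel-like factor that favours axon growth, was within 0.03 of 0 on the log2 scale in each pair. Its log2 fold change of 0.0038 had a confidence interval from -0.13 to 0.14, the narrowest of the 10.

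The 3 cytoskeletal genes did not pass the adjusted p in edgeR's quasi-likelihood test. Tubb3 measured 1296, 1197 and 1156 CPM in vehicle and 1496, 1328 and 1295 CPM in treated cultures, with replicate 1 highest in both groups. The treated culture was higher in every pair, and the lowest treated culture (1295 CPM) lay just under the highest vehicle culture (1296 CPM). The log2 fold change was 0.17 with a confidence interval from 0.03 to 0.31 and an adjusted p of 0.0837 in edgeR's quasi-likelihood test. The adjusted p of Tubb3 ranged from 0.00200 (ComBat-seq followed by limma) to 0.595 (no replicate block) across the alternatives, and was also below 0.05 with limma-voom (0.0406), raw library sizes (0.0458) and all genes of at least 1 count (0.0250). Stmn2, a neuronal stathmin that binds tubulin and is needed for axon regrowth, ranged from 921 to 1149 CPM in vehicle and from 978 to 1162 CPM after treatment. It too was higher in 3 of 3 pairs, by a log2 fold change of 0.094 with a confidence interval from -0.05 to 0.24. For Stmn2 the adjusted p was 0.349 with edgeR and ran from 0.0399 (ComBat-seq followed by limma) to 0.886 (neuronal marker scaling) across the alternatives. Gap43, a membrane phosphoprotein of growth cones, measured 322, 309.8 and 255 CPM in vehicle and 289, 295 and 258 CPM in treated cultures. Replicate 3 was lowest in both groups, and the log2 fold change was -0.070 with a confidence interval from -0.21 to 0.07.

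**Figure D3:**
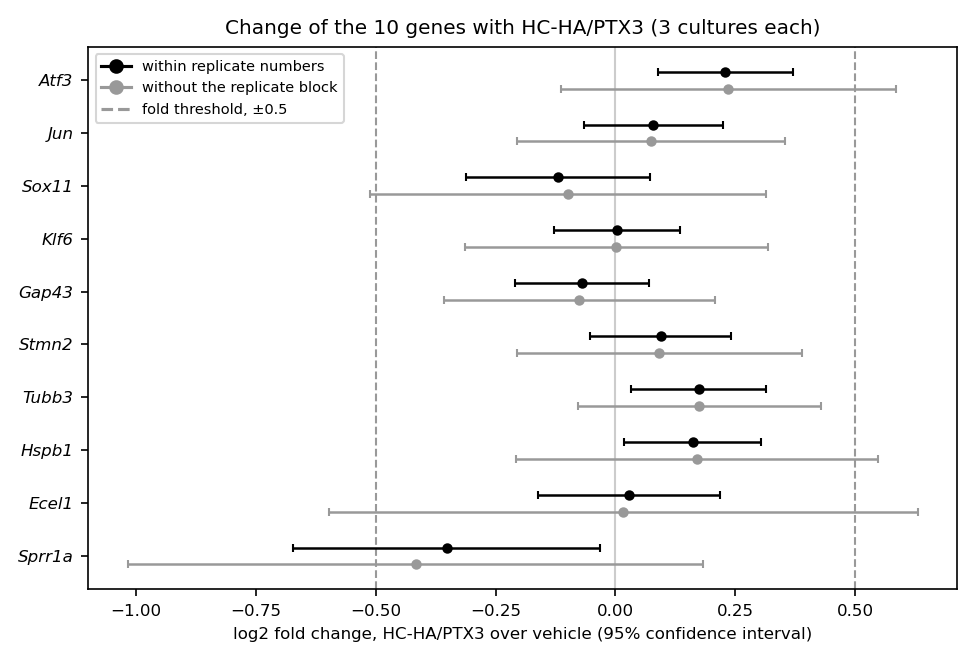
Log2 fold change of each gene with its 95% confidence interval, fitted within replicate numbers (black) and without the replicate block (grey), with dashed lines at 0.5 in each direction (3 cultures per group). Without the block the intervals widened, and 5 of 10 rather than 9 of 10 lay inside the lines.

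The remaining genes act in stress survival and the injured axon. Hspb1 encodes a small heat shock protein that protects axotomised neurons and binds actin. It measured 202, 167 and 209 CPM in vehicle and 239.8, 172 and 238 CPM in treated cultures, with replicate 2 lowest in both groups. The log2 fold change was 0.16 with a confidence interval from 0.02 to 0.30 and an adjusted p of 0.110 in edgeR's quasi-likelihood test, over a range of 0.0298 (ComBat-seq followed by limma) to 0.753 across the alternatives. Across the 6 cultures log2 CPM of Hspb1 followed that of Atf3 with a Pearson r of 0.963, the highest of the 45 pairs among the 10 genes, followed by Jun with Stmn2 at 0.904. These 6 points share replicate numbers and treatments and are given as a description only. Ecel1, an injury-induced membrane endopeptidase of neurons, measured 32.6, 51.7 and 58.1 CPM in vehicle and 37.5, 45.2 and 61.5 CPM in treated cultures. Its replicate 1 was lowest and its replicate 3 highest in both groups, and the log2 fold change was 0.028 with a confidence interval from -0.16 to 0.22.

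Sprr1a, a small proline-rich protein of the cornified envelope that injured sensory neurons make and send into their axons, had the largest fitted change of the 10. It measured 186, 119 and 88.3 CPM in vehicle replicates 1, 2 and 3 and 103, 91.0 and 100.0 CPM in the treated cultures. The vehicle cultures spread 2.10-fold while the treated ones lay close together, and the pair differences on the log2 scale were -0.85, -0.38 and 0.18. The log2 fold change was -0.35 ± 0.14 (SE) with a confidence interval from -0.67 to -0.03 and an adjusted p of 0.118 in edgeR's quasi-likelihood test, over a range of 2.68e-05 to 0.627 across the alternatives. Without replicate 3, the pair that went the other way, it was -0.60 with an adjusted p of 0.000461 and was called. Without replicate 1 it was -0.10. It also passed the adjusted p, short of the fold threshold, with neuronal marker scaling (0.0161) and with all genes of at least 1 count (2.68e-05).

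Promoter sequence was read for Atf3 and Hspb1, the pair of genes that varied most alike, and for Sprr1a, which varied most between pairs. The windows are the 250 bases before the transcription start site from RefSeq (GRCm38.p6). The set of windows used here held an entry for 8 of the 10 genes (not Gap43 or Stmn2). Each is written 5′ to 3′ on the strand of its gene: chr1:191183334-191183583 (minus strand) for Atf3, chr5:135887669-135887918 (plus strand) for Hspb1 and chr3:92485882-92486131 (minus strand) for Sprr1a. In GENCODE M21 the Hspb1 window touches no exon, the Sprr1a window is upstream of the gene apart from 14 bases of its first exon, and the Atf3 window lies inside the gene with 7 bases in an exon, as longer Atf3 transcripts start upstream of it. Capitals mark matches to AP-1 (TGANTCA), CRE (TGACGTCA) or the heat shock element core (GAANNTTC), letters that read the same on both strands.
Atf3: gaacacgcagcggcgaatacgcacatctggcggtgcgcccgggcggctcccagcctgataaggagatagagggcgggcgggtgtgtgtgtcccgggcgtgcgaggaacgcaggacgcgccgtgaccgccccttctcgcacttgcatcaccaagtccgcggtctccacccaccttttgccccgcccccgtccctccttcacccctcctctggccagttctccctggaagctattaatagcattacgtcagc
Hspb1: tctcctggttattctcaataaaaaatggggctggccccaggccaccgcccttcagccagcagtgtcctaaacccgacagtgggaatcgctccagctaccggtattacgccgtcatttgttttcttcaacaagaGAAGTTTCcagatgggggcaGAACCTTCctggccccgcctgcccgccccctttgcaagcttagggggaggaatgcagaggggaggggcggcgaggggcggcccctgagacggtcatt
Sprr1a: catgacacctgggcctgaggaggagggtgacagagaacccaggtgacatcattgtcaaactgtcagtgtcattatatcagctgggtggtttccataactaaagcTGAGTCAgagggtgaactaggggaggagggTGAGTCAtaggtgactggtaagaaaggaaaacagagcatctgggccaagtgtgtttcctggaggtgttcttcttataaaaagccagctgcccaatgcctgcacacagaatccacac
Hspb1 held 2 heat shock element cores, GAAGTTTC starting at -117 and GAACCTTC at -97 from the start site, and Sprr1a held 2 AP-1 matches, TGAGTCA at -146 and at -116. Jun held 1 heat shock element core at -128, and the windows of Atf3, Sox11, Klf6, Tubb3 and Ecel1 held no exact match to these letters. Variants that differ from these letters by a base were not searched for, so no match does not mean that related sites are absent. Of the 250 bases, 129 in the Tubb3 window, 165 in the Ecel1 window and 7 in the Klf6 window lie in exons of these genes in GENCODE M21, so the Tubb3 and Ecel1 windows are in large part not upstream sequence in that annotation. No match overlapped another. Among 32851 windows of the same length, 6.75% held TGANTCA, 1.55% TGACGTCA and 6.69% GAANNTTC. A match is a description, not a binding site or a cause.

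More of the 10 genes passed the test between replicate numbers than between treatments, as did more of all genes. In the same fit, 6 of 10 (Atf3, Sox11, Klf6, Gap43, Hspb1 and Ecel1) differed between replicate numbers at an adjusted p below 0.05, beside 33.8% of all genes tested. Ecel1 had the smallest adjusted p (0.000985 in edgeR's quasi-likelihood test), with a mean over both treatments of 35.1 CPM in replicate 1, 48.4 CPM in replicate 2 and 59.8 CPM in replicate 3. By their means over both treatments, Hspb1, Atf3, Sox11 and Klf6 were lowest in replicate 2 and highest in replicate 3. These means differed by 1.32-fold, 1.30-fold, 1.29-fold and 1.27-fold in that order. Gap43 went the other way and was lowest in replicate 3. Without replicate 2, 1 of the 10 (Ecel1) differed between the replicate numbers left, beside 23.1% of all genes in that fit. Scaled to neuronal markers, 6 of 10 differed beside 58.1% of all genes, but they were Sox11, Klf6, Gap43, Tubb3, Ecel1 and Sprr1a. Atf3 and Hspb1 did not pass on that scale. With all genes of at least 1 count 9 of 10 differed (beside 24.2%), and with upper-quartile scaling 5 of 10 did (beside 34.4%).

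Markers of other cells also moved with replicate number and with treatment. The 8 satellite glia markers, of which Apoe was the most abundant, summed to 2237, 1370 and 543 CPM in vehicle replicates 1, 2 and 3 and to 2132, 1409 and 562 CPM in the treated cultures, and all 8 differed between replicate numbers. The 12 neuronal markers, led by Nefl, summed to 9725, 7507 and 8691 CPM in vehicle and 9775, 7805 and 9771 CPM in treated cultures. They were lowest in replicate 2 in both groups, as were Atf3, Klf6, Stmn2 and Hspb1. The 8 fibroblast markers, led by Fn1, summed to 3742, 3865 and 2176 CPM in vehicle and to 2419, 2614 and 1058 CPM after HC-HA/PTX3. Of these 8, 5 were called lower (Col1a1, Col1a2, Col3a1, Postn and Fn1), where 5.38% of all genes were. Dcn, Lum and Pdgfra did not pass the adjusted p, with log2 fold changes of -0.092, -0.31 and -0.25. The 5 markers of cycling cells, led by Mki67, summed to 645, 439 and 196 CPM and to 215, 219.96 and 34.9 CPM in the same order, and 5 of 5 were called lower.

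Schwann cell markers (led by Ngfr) ranged from 1496 to 1970 CPM with 1 of 8 called lower and 3 of 8 lower past the adjusted p. Macrophage markers (led by Cd68) ranged from 39.2 to 67.7 CPM with 2 of 8 called lower. Mural cell markers (led by Rgs5) ranged from 258 to 504 CPM with 1 of 5 called lower. Of all genes tested, 5.38% were called lower and 11.5% were lower past the adjusted p. The Schwann cell call was lost with limma-voom and with ComBat-seq followed by limma, which called 0, and the mural cell call was lost with DESeq2, which called 0. Of the fibroblast markers DESeq2 and ComBat-seq followed by limma each called 4 in place of 5. Endothelial markers (led by Cdh5) ranged from 250.2 to 303 CPM. In edgeR's quasi-likelihood test 0 of 6 were called and 0 passed an unadjusted p of 0.05, beside 8.70% and 33.2% of all genes. The other tools also called 0 of them. Neuronal and satellite glia markers had 0 calls by each tool, with 4 of 12 and 5 of 8 at an unadjusted p below 0.05, beside 33.2% of all genes. Past the adjusted p in edgeR were 1 higher and 1 lower of the neuronal markers and 2 higher and 2 lower of the satellite glia markers. The shares of all genes were 7.67% higher and 11.5% lower. No marker was at 0 counts in any culture. The 10 genes summed to 4511, 3874 and 4026 CPM in vehicle and to 4604, 4083 and 4438 CPM in treated cultures. What part the shifts in markers of other cells had in these values was not tested.

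**Figure D4:**
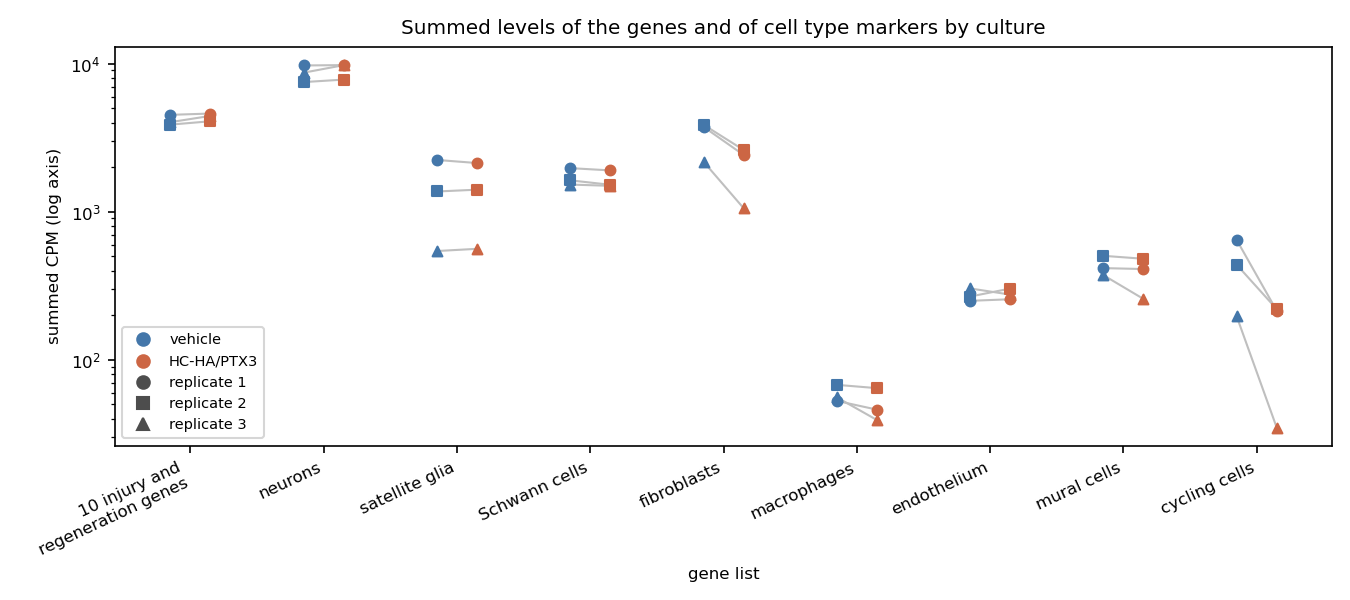
Summed CPM of the 10 genes and of 8 lists of cell type markers on a log axis, with lines joining the vehicle (blue) and HC-HA/PTX3 (orange) cultures of each replicate number. Satellite glia markers separated the replicate numbers, from 2237 to 543 CPM in vehicle, while markers of cycling cells and fibroblasts fell with treatment in every pair.

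Of 123 further injury and growth genes in 9 lists by role, 116 had enough counts to be tested (not Vip, Hspb3 and 5 Sprr genes). By edgeR's quasi-likelihood test 4 were called higher and 2 lower, which is 5.17% of those tested beside 8.70% of all genes. Past the adjusted p at any fold there were 14 higher and 11 lower (21.6% beside 19.2%), and their median log2 fold change was -0.011 beside -0.0067 over all genes. Without the replicate block edgeR called 0 of these genes and 0 of all genes (0%), with 5 and 2089 at an unadjusted p below 0.05, and the adjusted p of the 6 lay between 0.233 and 0.624. Under the 13 alternatives Gdf15 was called in 12, Csf1 and Gadd45a in 11, Fosl1 in 10, and Egr1 and Klf15 in 8. The alternative without the fold threshold is among the 13 and could not end a call.

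Among injury transcription factors, 1 of 20 was called higher and 1 lower, 10.0% beside 8.70% of all genes, and 3 rose and 2 fell past the adjusted p (25% beside 19.2%). Fosl1, which encodes the AP-1 subunit FRA1, measured 35.9, 57.5 and 86.6 CPM in vehicle and 62.5, 81.0 and 118 CPM in treated cultures. It rose in every pair on a baseline that itself differed between replicate numbers, with a log2 fold change of 0.58 ± 0.08 (adjusted p 0.00145 by edgeR). Egr1, an immediate early zinc finger factor, measured 142, 128 and 158 CPM in vehicle and 96.3, 101 and 99.6 CPM in treated cultures, which did not overlap. Its log2 fold change was -0.52 ± 0.07 (adjusted p 0.00159 by edgeR). Klf7, a growth-promoting Krüppel-like factor and the most abundant of the list at 100.2 CPM per kb, had a log2 fold change of -0.027.

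The list of injury-induced peptides, cytokines and growth factors also holds Gadd45a, which encodes a nuclear protein, and the receptor gene Cckbr. Of its 12 tested genes edgeR called 2 higher (Gadd45a and Gdf15) and 1 lower (Csf1), 25% beside 8.70% of all genes, and 4 rose and 1 fell past the adjusted p (41.7% beside 19.2%). Gadd45a, a stress-inducible gene that is strongly raised in axotomised DRG neurons, measured 104, 77.2 and 78.5 CPM in vehicle and 148, 117 and 119 CPM in treated cultures, without overlap. Its log2 fold change was 0.57 ± 0.06 (adjusted p 0.000639 by edgeR). Gdf15, a stress-induced cytokine of the TGF-β family, was low at 0.624, 2.63 and 4.88 CPM in vehicle and 2.24, 4.91 and 14.3 CPM after treatment, higher in 3 of 3 pairs with a log2 fold change of 1.38 ± 0.19 (adjusted p 0.00133 by edgeR). Csf1, the macrophage growth factor that injured sensory neurons induce, fell from 103, 130 and 229 CPM to 72.6, 97.6 and 128 CPM, with a log2 fold change of -0.58 ± 0.08 (adjusted p 0.00165 by edgeR). Adcyap1, which encodes the neuropeptide PACAP, was the most abundant of this list at 134 CPM per kb and rose by a log2 fold change of 0.23 ± 0.06 without reaching the fold threshold.

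Of 23 growth cone and cytoskeleton genes, the relatives of Gap43, Stmn2 and Tubb3, edgeR's quasi-likelihood test called 0 beside 8.70% of all genes. Past the adjusted p 1 rose and 2 fell (13.0% beside 19.2%). An unadjusted p below 0.05 was reached by 11, a level passed by 33.2% of all genes. Tuba1a, an α-tubulin, was the most abundant at 1104 CPM per kb with a log2 fold change of 0.020. Of 12 adhesion and proteolysis genes edgeR called 0 beside 8.70% of all genes. Past the adjusted p 1 was higher and 2 were lower (25% beside 19.2%), and 6 had an unadjusted p below 0.05 (beside 33.2%). Cd24a, a small surface glycoprotein of growing neurites, measured 874, 667 and 665 CPM in vehicle and 1036, 944 and 1017 CPM in treated cultures, a log2 fold change of 0.45 ± 0.08 (adjusted p 0.00397 by edgeR) that stopped short of the fold threshold. Of 12 genes of DLK and JNK signalling and of axon degeneration edgeR called 0 beside 8.70% of all genes. Past the adjusted p 2 were higher (16.7% beside 19.2%), the kinase gene Mapk9 and the degeneration gene Sarm1. In this list 3 had an unadjusted p below 0.05 (beside 33.2%). Mapk8ip1, a JNK scaffold, was the most abundant of these at 49.5 CPM per kb.

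**Figure D5:**
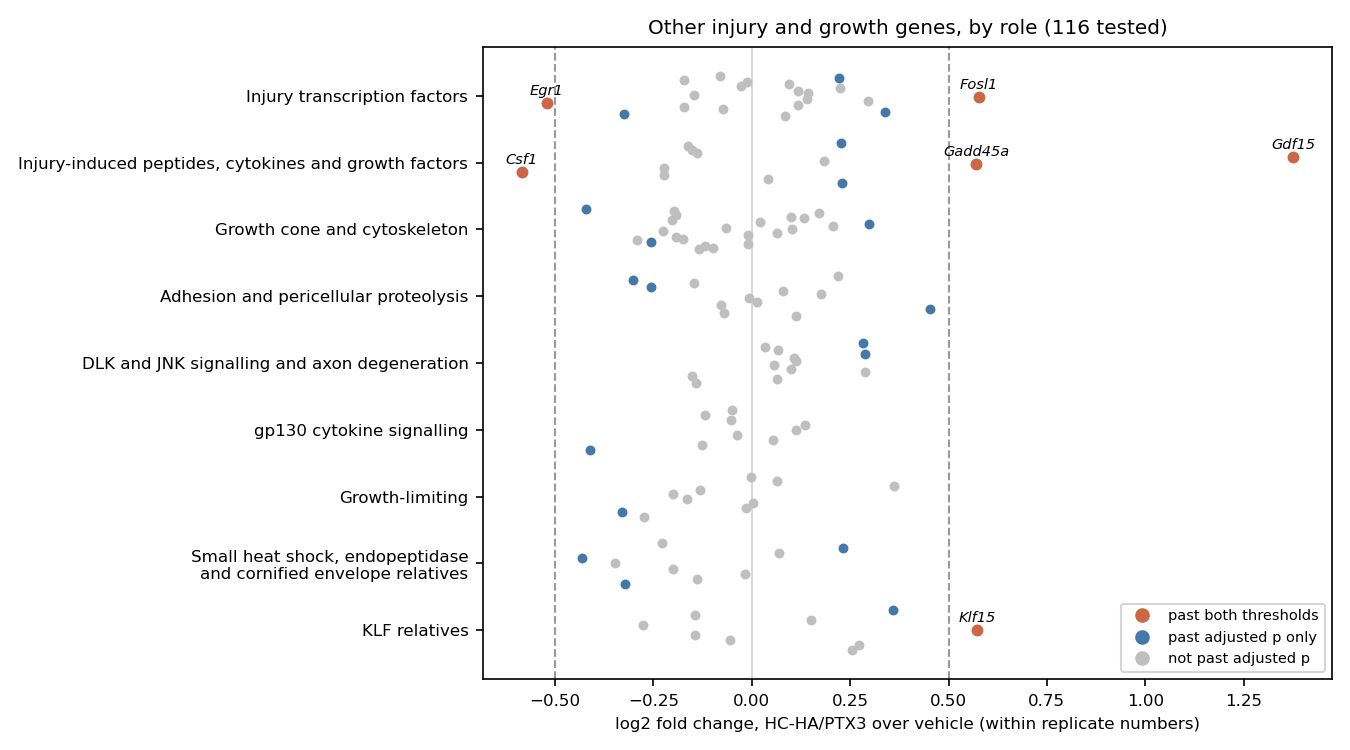
Log2 fold change of the 116 tested genes of 9 lists, 1 point per gene, with orange for genes past both thresholds, blue for those past the adjusted p only and grey for the rest, and dashed lines at 0.5 in each direction. The 6 called genes are named, 4 to the right and 2 to the left of 0.

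In the gp130 cytokine list edgeR called 0 of 9 genes beside 8.70% of all genes, with 1 lower past the adjusted p (11.1% beside 19.2%) and 1 at an unadjusted p below 0.05 (beside 33.2%). Lifr, the receptor for leukaemia inhibitory factor, was the most abundant at 78.4 CPM per kb with a log2 fold change of 0.14.

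Of 10 growth-limiting genes edgeR called 0 beside 8.70% of all genes. Past the adjusted p 1 was lower (10.0% beside 19.2%), and 5 had an unadjusted p below 0.05 (beside 33.2%). The most abundant of them was Rhoa, the small GTPase that collapses growth cones, at 43.2 CPM per kb. Among relatives of Hspb1, Ecel1 and Sprr1a edgeR called 0 of 9 tested genes beside 8.70% of all genes. Past the adjusted p 1 was higher and 2 were lower (33.3% beside 19.2%), and 4 had an unadjusted p below 0.05 (beside 33.2%). DESeq2, limma-voom and ComBat-seq followed by limma also called 0 in each of these 6 lists. With the fold threshold kept, other alternatives did call 2 of their genes. Cd24a was called without replicate 1 (log2 fold change 0.56, adjusted p 0.00310 by edgeR). Hspb6, at -0.43 in the main fit, was called with neuronal marker scaling (-0.51, adjusted p 0.0169 by edgeR) and without replicate 3 (-0.52, adjusted p 0.0248 by edgeR). Cryab, a small heat shock protein also made by glia, was the most abundant at 150.2 CPM per kb with a log2 fold change of -0.32 ± 0.08 (adjusted p 0.0237 by edgeR). The other cornified envelope genes in the list were not detectable or nearly so: Sprr2a1, Sprr2b and Sprr4 had 0 counts in all 6 cultures, which allows up to 0.0536 to 0.0808 CPM per culture (3 counts, counting error only), and Sprr1b and Sprr3 had 1 count each. Among 9 relatives of Klf6, 1 was called (11.1% beside 8.70%) and 2 rose past the adjusted p (22.2% beside 19.2%). Klf15 was called higher at 2.65, 1.98 and 1.79 CPM in vehicle and 3.61, 3.53 and 2.41 CPM in treated cultures (log2 fold change 0.57 ± 0.18, adjusted p 0.0458 by edgeR), and Klf10, a TGF-β-inducible factor, was the most abundant at 21.2 CPM per kb.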

How the data were processed

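The deposited counts per gene were made by the authors from paired-end reads of 6 rRNA-depleted libraries, with HISAT2 alignment to mm10 and featureCounts per the study's methods (the file headers name RNA STAR, and no strand setting is given in the sources used here). From these counts, levels (CPM) and tests were computed in R 4.3.3 with edgeR 4.0.16: filterByExpr, trimmed mean of M-values, and glmQLFit and glmQLFTest with replicate number and treatment as terms, the study's batch term being replaced by the replicate number. Same-numbered cultures deviated together from their group means (r = 0.63, 0.54 and 0.77 for numbers 1, 2 and 3; -0.61 to 0.15 for other pairs), so the numbers were taken to pair the cultures. No 2 libraries of a group agreed within sampling noise (chi-square per degree of freedom 31.4 or more). A call needed an adjusted p below 0.05 and a log2 fold change beyond 0.5. Exact permutation of 3 against 3 cultures that ignores the pairs cannot go below 0.1. Swapping treatments only within the 3 pairs allows fewer arrangements, so its limit is higher. Exon lengths came from GENCODE M21 for 26708 genes matched by symbol, with the exons of all transcripts of a gene merged. Genes named in each list were those called (up to 4) and the most abundant per kb. Junos, Uchl1, Elavl4, Mapk9, Sarm1, Cckbr, Hspb6 and the fibroblast markers other than Fn1 were named after their values were seen. An item of the lists is not reported here, and the list counts leave it out. The members and lists were chosen with earlier results of these data known. Alternatives used DESeq2 1.42.0, limma 3.58.1 and sva 3.50.0, other scalings and filters, no block, and each replicate number left out. The code was tested on simulated data.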

Additional observations from a re-analysis of the deposited data

How the results depend on the processing

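Without the replicate block, 0 genes in all, 0 of the wider lists and 0 of the 10 genes were called, against 1591, 6 and 0 with it. Without the fold threshold 3505 genes, 25 wider list genes and 1 of the 10 passed. At any fold, 57 wider list genes (49.1%) and 4 of the 10 passed with ComBat-seq followed by limma, where 40.7% of all genes did. The counts were 0 and 0 without the replicate block (0% of all genes), 12 (10.3%) and 0 without replicate 2 (11.8% of all genes), and 15 to 34 and 0 to 3 under the remaining alternatives (8.20% to 20.3% of all genes). With both cultures of 1 replicate number left out, calls ranged from 878 (without replicate 1) to 1571 over all genes, from 0 to 1 of the 10 genes (Sprr1a without replicate 3), from 4 to 5 wider list genes, and from 1 (without replicate 2) to 6 of the 10 between replicate numbers, where 12.4% to 28.0% of all genes differed (23.1% without replicate 2). The other scalings, filters and tools called 1211 to 2127 genes, 0 of the 10 and 4 to 6 of the wider lists. Scaled to neuronal markers the split was 476 higher and 1402 lower, against 607 and 984. Directions turned for Klf6, Ecel1 and Sox11, none past the adjusted p on either side. Scaled to neuronal markers, Klf6 went to -0.074 and Ecel1 to -0.051 on the log2 scale, and Klf6 to -0.014 with all genes of at least 1 count. With replicate numbers left out, Sox11 ranged from -0.22 to 0.0094, Klf6 from -0.013 to 0.026 and Ecel1 from -0.053 to 0.14. The cause was not tested. Of 130 log2 fold changes of the 10 genes under alternatives, 122 kept their direction and remained short of a call by both thresholds together. Another 6 turned and 1 passed both thresholds (Sprr1a without replicate 3). The remaining 1 is Atf3, unchanged in value and counted as passed only because the fold threshold was removed. Among the 122, the adjusted p alone crossed 0.05 under some alternatives for Atf3, Tubb3, Stmn2, Hspb1 and Sprr1a. At 37.1 counts or more per CPM, depth limits only genes near the floor of 3 counts, such as the Sprr relatives.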

Other observations

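Genes whose log2 CPM over the 6 cultures was most like that of 3 of the 10 genes, among 13575 genes compared, are given as a description, since 6 cultures that share replicate numbers leave many genes with similar profiles. Atf3 was followed by Gm42372 (Pearson r 0.999), Spire2 (0.996), an actin nucleator, and Atp6v0a1 (0.993), a subunit of the vacuolar proton pump. Spire2 measured 57.7, 46.3 and 59.8 CPM in vehicle replicates 1, 2 and 3 and 70.6, 52.3 and 75.7 CPM in the treated cultures, with replicate 2 lowest in both groups as for Atf3. Sprr1a was followed by Gprasp1 (0.986), Ank3 (0.979), which encodes ankyrin-G, and Vdac1 (0.969), although Vdac1 ranged only from 362 to 386 CPM where Sprr1a ranged from 88.3 to 186 CPM. Gap43 was followed by Ankrd44 (0.997), Phip (0.994) and Cntrl (0.994). Ankrd44 measured 32.0, 29.9 and 21.1 CPM in vehicle and 26.4, 27.9 and 22.3 CPM in treated cultures, lowest in replicate 3 in both groups as for Gap43.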
